A study of Yarrowia lipolytica with 35 samples.

Results

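Citrate formation and mitochondrial citrate transport were followed through 6 genes of the yeast Yarrowia lipolytica: PYC1 (YALI0C24101g), CIT1 (YALI0E02684g), CIT2 (YALI0E00638g), ACO1 (YALI0D09361g), CTP1 (YALI0F26323g) and YHM2 (YALI0B10736g). They were chosen by locus tag for their place in the pathway, and all 6 were found among the 7132 genes of the count table and among the 6537 that passed the filter on low counts. The symbols are published names that the files do not hold, so the identity of each tag is unverified here. RNA was sequenced from bioreactor cultures of strains DSM-3286 and DSM-21175, fed glucose or glycerol as the only carbon source. Growing cells were sampled at pH 5.5 after 12 h on glucose or 8 h on glycerol, and nitrogen-limited stationary cells at 32 h at pH 5.5 or pH 3.5. This gave 12 groups of 3 libraries, with only 2 (replicates 1 and 3) for stationary DSM-3286 on glucose at pH 5.5. The labels give no genetic change in either strain, so a strain here is 1 isolate and not a defined allele. In growth phase the carbon source and the hour of sampling cannot be told apart.

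Citrate is made in mitochondria when citrate synthase joins acetyl-CoA to oxaloacetate, and aconitase then turns it into isocitrate for the tricarboxylic acid cycle. Pyruvate carboxylase refills the oxaloacetate, and carriers in the inner mitochondrial membrane bring citrate to the cytosol, where it feeds lipid synthesis. Yarrowia lipolytica is known for storing lipid and secreting citrate when nitrogen runs out while carbon remains.

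Libraries held 6.7 to 25.7 megareads counted on genes, with a median of 12.55 megareads. Replicates correlated with r of 0.969 to 0.9956 over log2 levels. A set of 5 libraries, all of DSM-21175, stood apart from their replicates: replicate 2 of glycerol growth, and replicate 3 of glucose growth, of both stationary groups at pH 5.5 and of glycerol at pH 3.5. Where a change described below gained or lost its call without them, or moved by over 1.5 times, the value without them is given too. Shares of all genes called are of the fit with all libraries. The fit without the 5 called more genes in several comparisons, given at the end. The lowest count of any of the 6 genes in a library was 27 reads, for CIT2. Levels are CPM, the counts of a gene per megaread of its library, scaled between libraries by the trimmed mean of M-values, or FPKM where genes are compared, which is CPM per kilobase of coding length. They are shares of the RNA of a whole culture, so fewer expressing cells and less RNA per cell cannot be told apart. A change was called at a Benjamini-Hochberg adjusted p under 0.05 over all 6537 genes in edgeR's quasi-likelihood test, and values after ± are SD for levels and SE for log2 fold changes.

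Per coding length YHM2 had the highest level, 1670 FPKM as the mean over the 12 groups, above 97.6% of the coding genes tested. PYC1 followed at 675 FPKM, ACO1 at 526 and CIT1 at 417, above 94.7, 93.4 and 91.7% of coding genes. CTP1 at 116 FPKM and CIT2 at 83.5 FPKM were lower. YHM2 ranked first of the 6 genes in 8 groups, and PYC1 took its place in the 4 stationary groups of DSM-21175. CIT2 was lowest in 7 groups and CTP1 in 5. The spread between the highest and lowest group mean also differed between the genes. It was 139-fold for CIT2, 14.5-fold for YHM2, 11.2-fold for CTP1, 6.38-fold for PYC1, 2.43-fold for ACO1 and 2.23-fold for CIT1. On the log2 scale the CIT2 spread of 7.12 exceeded that of 96.3% of all genes tested and the CIT1 spread of 1.16 that of 19%, beside a median of 1.93 over all genes.

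**Figure D1:**
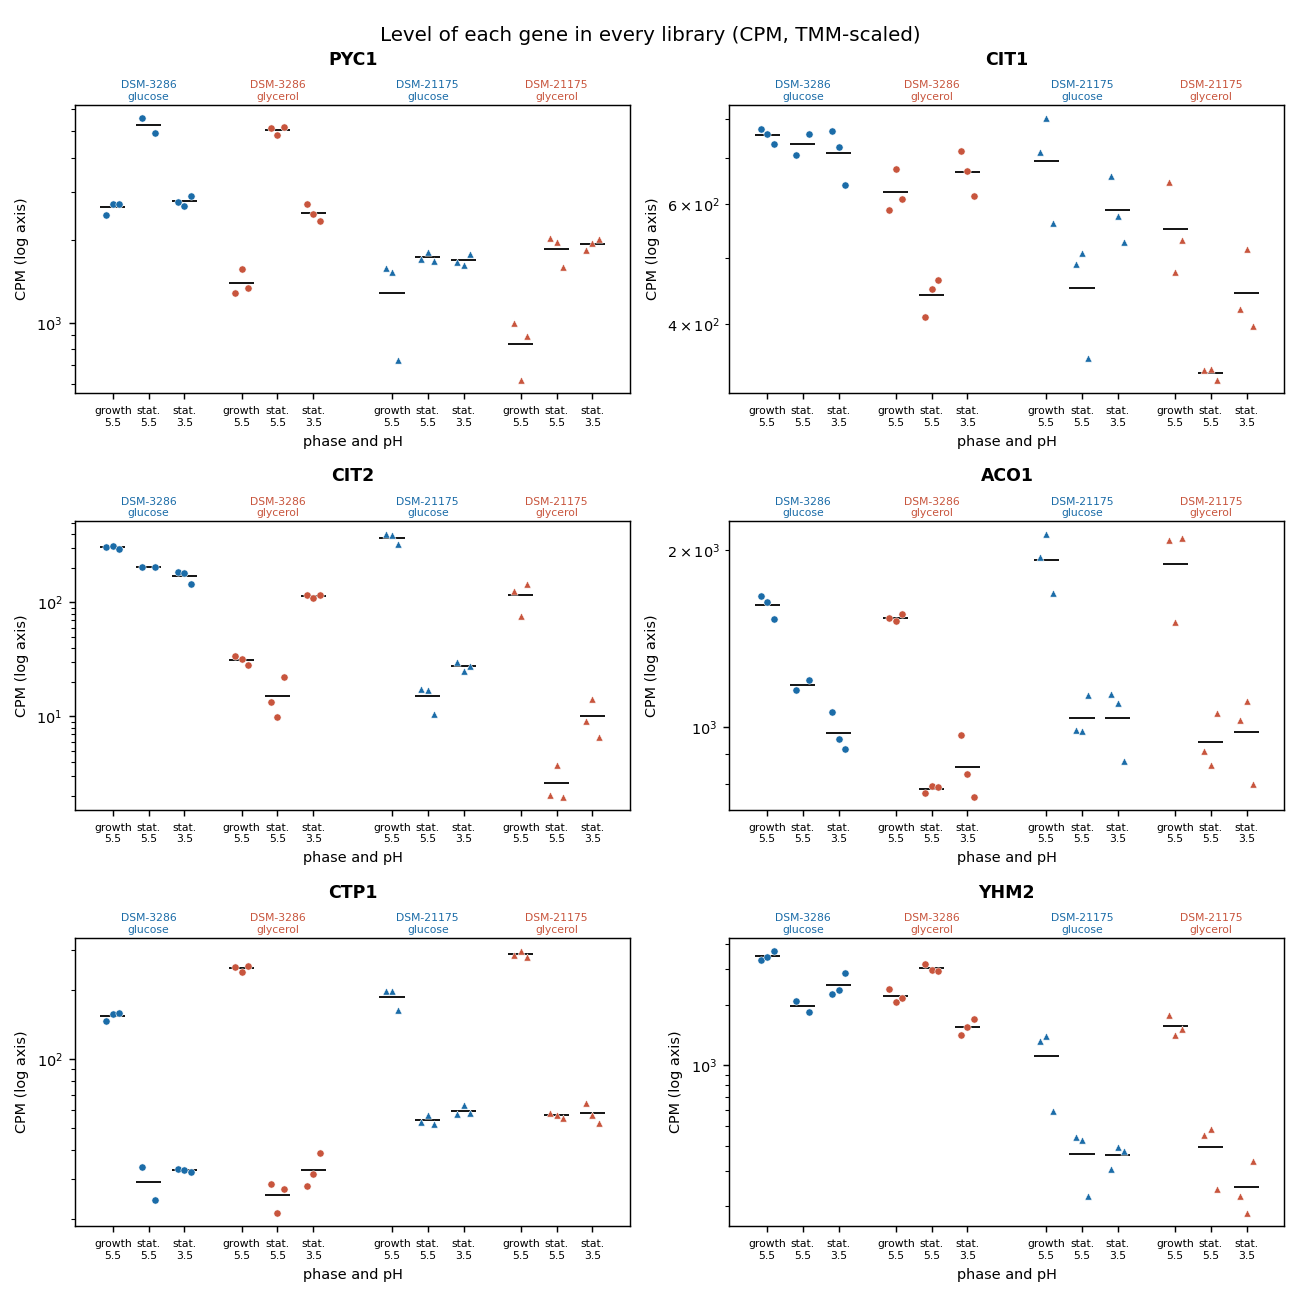
CPM on a log axis for each gene in every library, by strain, carbon source, phase and pH; circles are DSM-3286, triangles DSM-21175, and bars are group means. CIT2 runs from 369 CPM in DSM-21175 growing on glucose to 2.6 CPM in the same strain on glycerol in stationary phase at pH 5.5, while CIT1 stays between 339 and 756 CPM.

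Between 43.2% and 86.1% of all genes were called in the 5 averaged comparisons, and the 6 genes are read against that background. Between stationary and growth phase at pH 5.5, 86.1% of all genes were called, 42.9% higher and 43.2% lower. All 6 genes were called: PYC1 rose and the other 5 fell. Their median log2 change was -0.908, beside 0.00893 over all genes. Between the strains 80.4% of all genes were called, 43.0% higher and 37.5% lower in DSM-21175, and again all 6 were. ACO1 and CTP1 were higher in DSM-21175, and PYC1, CIT1, CIT2 and YHM2 were lower, with a median of -0.68 beside 0.0345. Between pH 3.5 and pH 5.5, with 68.5% of all genes called (34.2% higher, 34.3% lower), 3 were higher (CIT1, CIT2, CTP1) and 2 lower (PYC1, YHM2), with a median of 0.0779 beside -0.00646. Between glycerol and glucose in growth phase, with 62.6% of all genes called (31.8% higher, 30.7% lower), CTP1 was higher and PYC1, CIT1 and CIT2 lower, with a median of -0.193 beside -0.0141. In stationary phase, with 43.2% called (22.2% higher, 21.0% lower), CIT1, CIT2 and ACO1 were lower on glycerol and 0 were higher, with a median of -0.185 beside 0.0102. Without the 5 libraries that stand apart YHM2 passed in both carbon source comparisons too (-0.23 in growth and -0.19 in stationary phase). Both YHM2 averages pool opposite directions. With all libraries the single contrasts ran from -0.67 to 0.50 in growth and from -0.68 to 0.62 in stationary phase. The counts of called genes among the 6 are near these background shares, so the account rests on their sizes and directions.

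The share of all genes called in the single contrasts between 2 groups ran from 11.9% to 79.6%. From growth to stationary phase 5 of the 6 genes were called in DSM-3286 on glucose (71.9% of all genes) and on glycerol (79.6%), and 6 in DSM-21175 on glucose (72.3%) and on glycerol (76.4%). Between strains 3 were called in growth on glucose (56.6% of all genes) and on glycerol (48.9%). In stationary phase the strains differed in 5 at pH 5.5 on glucose (62.8%) and on glycerol (69.7%), and in 4 at pH 3.5 on glucose (61.3%) and on glycerol (64.0%). Between pH values 1 was called in DSM-3286 on glucose (46.3% of all genes) and 5 on glycerol (66.2%), against 2 in DSM-21175 on glucose (27.3%) and 2 on glycerol (28.7%). Between carbon sources 4 were called in growth in DSM-3286 (55.3%) and 4 in DSM-21175 (46.6%). In stationary phase 3 were called in DSM-3286 at pH 5.5 (35.8%), and 2 each in DSM-3286 at pH 3.5 (42.7%) and in DSM-21175 at pH 5.5 (11.9%) and pH 3.5 (15.7%). CIT2 was called in 18 of these 20 contrasts, PYC1 and CIT1 in 13 each, CTP1 in 12, YHM2 in 11 and ACO1 in 6. How many of the 20 are called for other genes was not counted. Some of the CIT2 calls were lost when single libraries were left out, as given below.

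**Figure D2:**
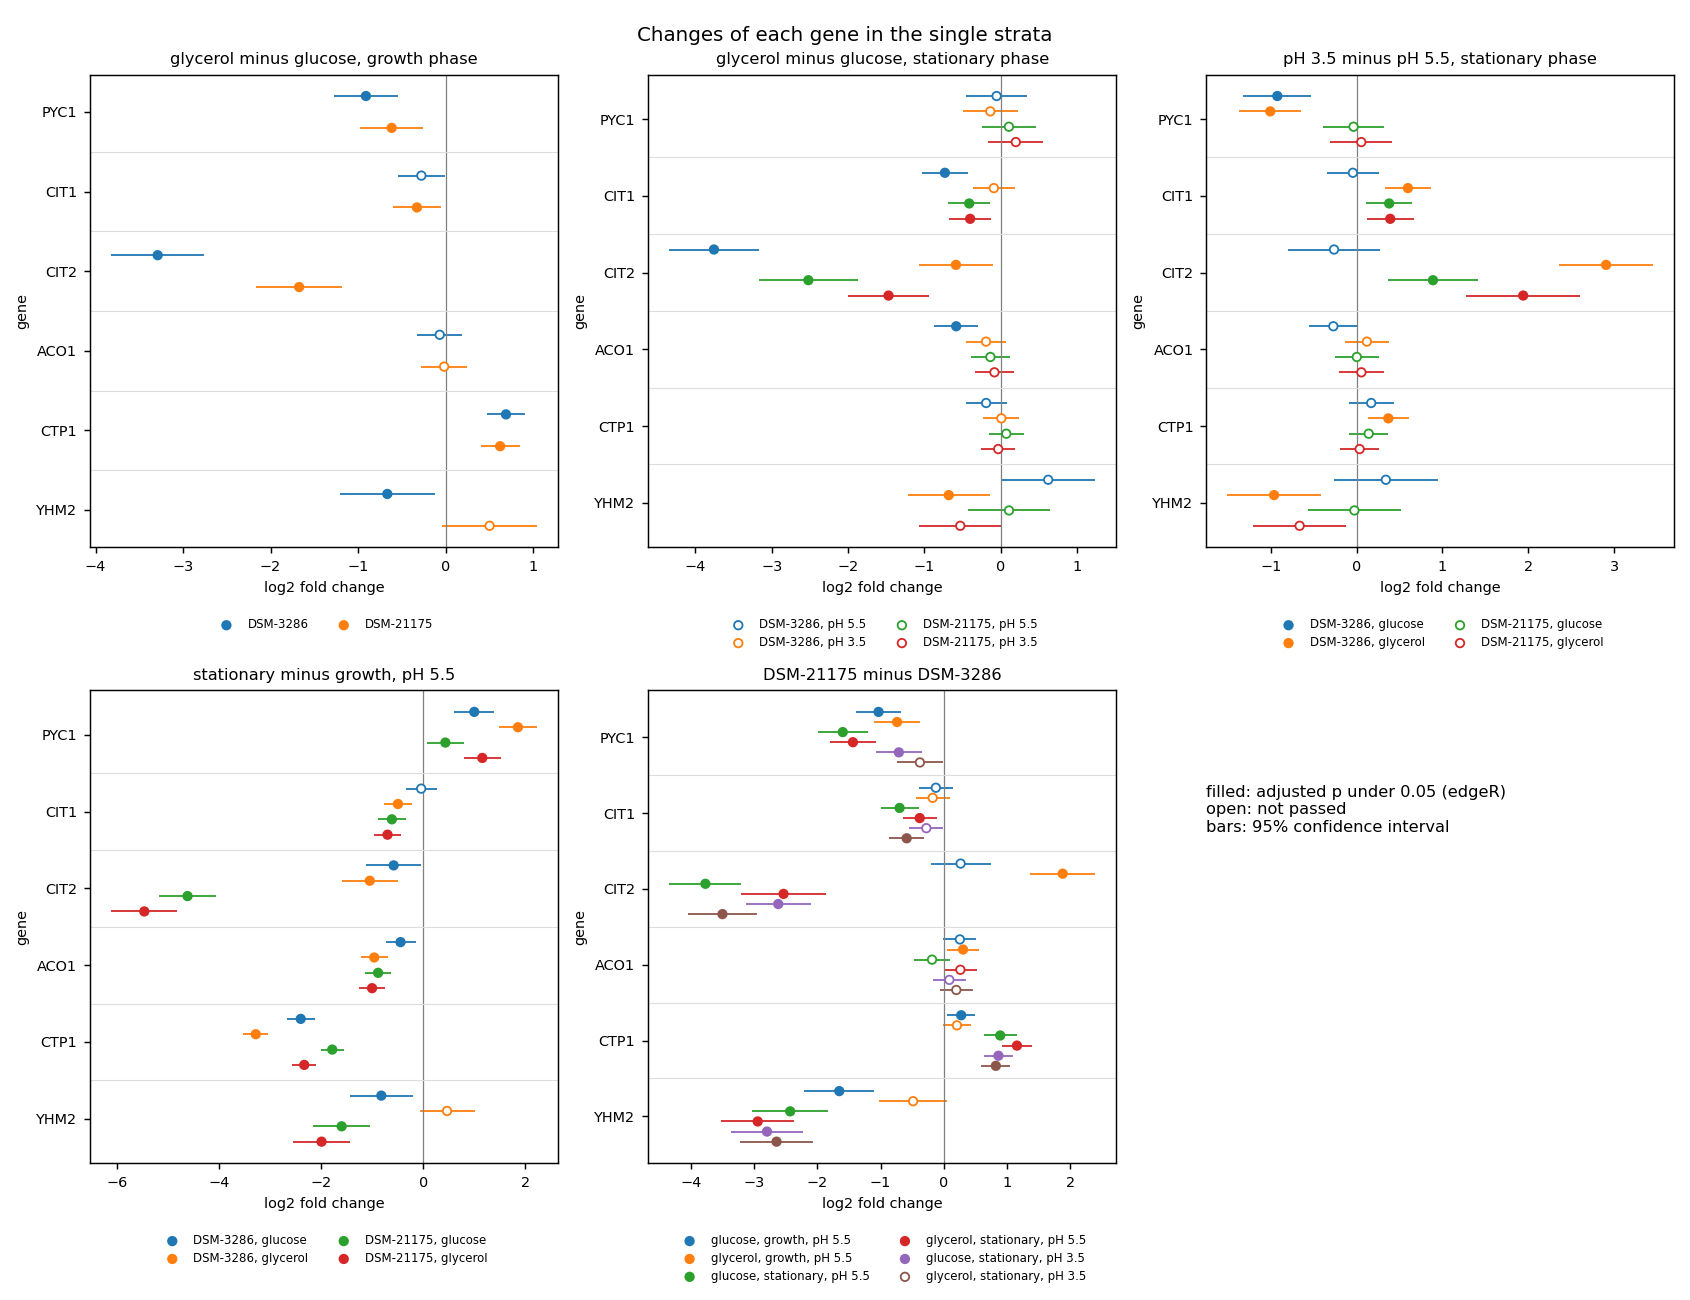
Log2 fold changes of the 6 genes in each of the 20 single contrasts between 2 groups, one panel per comparison; bars are 95% confidence intervals, and filled points passed the threshold. The CIT2 points lie farthest from 0, at -5.47 and -4.62 for the phase change in DSM-21175, while ACO1 stays between -1.01 and 0.30.

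PYC1 encodes pyruvate carboxylase, which makes oxaloacetate from pyruvate. Its RNA was highest in DSM-3286 in stationary phase at pH 5.5, where it stood at 5582 and 4921 CPM on glucose and at 5128, 4854 and 5184 CPM on glycerol. At pH 3.5 the same strain held 2753, 2656 and 2897 CPM on glucose and 2710, 2489 and 2352 CPM on glycerol. The pH groups did not overlap on either carbon source, and the carbon sources overlapped at both pH values. The pH 3.5 groups overlapped with the same strain growing on glucose, and the next group in order was of DSM-21175 and lay below them without overlap. At pH 3.5 the log2 change was -0.92 ± 0.193 on glucose and -1.01 ± 0.177 on glycerol (edgeR, adjusted p = 3e-04 and 1.42e-05).

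In DSM-21175 the same gene did not follow pH in this way. Stationary levels were 1710, 1810 and 1676 CPM on glucose at pH 5.5 and 1672, 1622 and 1775 CPM at pH 3.5. On glycerol they were 2034, 1968 and 1592 CPM at pH 5.5 and 1835, 1949 and 2025 CPM at pH 3.5. These groups overlapped between pH values, and the log2 changes of -0.04 (95% interval -0.39 to 0.32) and 0.05 (-0.30 to 0.41) did not pass. The difference between the strains in the pH change was 0.97 ± 0.18 (edgeR, adjusted p = 0.000103). Of all genes 41.0% were called in this test of a difference, and of the 6 genes only PYC1 was; without the 5 libraries that stand apart, ACO1 (0.26) and YHM2 (-0.41) also passed.

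Growing cells held less PYC1 RNA than stationary cells of the same strain and carbon source at pH 5.5. DSM-3286 had 2463, 2719 and 2714 CPM on glucose and 1287, 1570 and 1342 CPM on glycerol. DSM-21175 had 1588, 1538 and 730 CPM on glucose and 998, 617 and 898 CPM on glycerol. Carbon sources were apart in DSM-3286 and overlapped in DSM-21175 through replicate 3 of the glucose group, a library that stands apart. Lower values on glycerol were called in both strains (-0.91 ± 0.177 and -0.62 ± 0.176), and in stationary phase 0 of 4 contrasts passed. The DSM-21175 call was lost without glycerol replicate 2 or glucose replicate 1 (-0.44 in both cases). The carbon source change differed between phases by 0.79 ± 0.181 (edgeR, adjusted p = 0.000661).

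From growth to stationary phase PYC1 rose in 4 of 4 contrasts. The log2 change was 1.85 ± 0.181 in DSM-3286 on glycerol, a 3.61-fold rise, and 1.15 ± 0.178 in DSM-21175 on glycerol. On glucose it was 1.0 ± 0.193 in DSM-3286 and 0.43 ± 0.176 in DSM-21175. The last of these was lost without growth replicate 3, the low library (0.15, edgeR, adjusted p = 0.327), without any of the 3 stationary libraries (0.37 to 0.41), and without the 5 libraries that stand apart (0.13). DSM-21175 held less PYC1 RNA than DSM-3286 in 5 of 6 contrasts, from -1.60 ± 0.194 on glucose at pH 5.5 in stationary phase to -0.71 ± 0.176 on glucose at pH 3.5. The remaining one, glycerol at pH 3.5, gave -0.38 ± 0.175 and did not pass, though it did without the 5 libraries (-0.45).

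CIT1 encodes a citrate synthase, assigned to mitochondria, which condenses oxaloacetate with acetyl-CoA. Its levels were the most even of the 6, and in the order of the 12 group means every neighbouring pair overlapped in range but 1. The exception was the lowest group, DSM-21175 on glycerol in stationary phase at pH 5.5, at 342, 344 and 331 CPM, below the 409, 451 and 464 CPM of DSM-3286 under the same conditions. The highest group was DSM-3286 growing on glucose, at 773, 760 and 735 CPM.

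CIT1 was lower on glycerol in stationary phase by -0.41 ± 0.0682 on average (edgeR, adjusted p = 1.96e-05), in 3 of 4 contrasts. It was farthest apart in DSM-3286 at pH 5.5, with 707 and 760 CPM on glucose against the glycerol values above, a change of -0.73 ± 0.147. CIT1 was higher at pH 3.5 by 0.33 ± 0.0686 on average, in 3 of 4 contrasts, and reached 718, 670 and 617 CPM in DSM-3286 on glycerol, with no overlap with pH 5.5. It fell in stationary phase in 3 of 4 contrasts (-0.50 to -0.70), while DSM-3286 on glucose gave -0.04 (95% interval -0.35 to 0.26). The phase change was more negative in DSM-21175 by -0.39 ± 0.136 (edgeR, adjusted p = 0.016). DSM-21175 held less CIT1 RNA in 3 of 6 contrasts, all stationary, and without the 5 libraries in stationary phase on glucose at pH 3.5 too (-0.31). The 4 DSM-21175 calls for carbon source or pH in stationary phase, between -0.41 and 0.39, were each lost when single libraries were left out. With replicate 3 of glucose at pH 5.5 left out, the glucose pH change was 0.24 (edgeR, adjusted p = 0.211), and without the 5 libraries it was also lost (adjusted p = 0.0868). In growth the change on glycerol was called in DSM-21175 (-0.33), where it was lost when any of 4 libraries was left out, and in DSM-3286 it passed without the 5 libraries (-0.32).

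CIT2 carries the name of a second citrate synthase. In Saccharomyces cerevisiae the enzyme of that name is peroxisomal and serves the glyoxylate cycle; its place in Yarrowia lipolytica was not examined. Growing on glucose, DSM-21175 held 396, 387 and 323 CPM and DSM-3286 309, 315 and 296 CPM. Growing on glycerol, DSM-21175 held 127, 75.8 and 144 CPM and DSM-3286 33.9, 32.1 and 28.4 CPM. Every glucose library lay above every glycerol library of its strain, and both glucose groups lay above all 10 other groups without overlap.

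CIT2 was lower on glycerol in 6 of 6 contrasts. In growth the log2 change was -3.29 ± 0.258 in DSM-3286 and -1.67 ± 0.239 in DSM-21175, and the difference between strains was 1.61 ± 0.337 (edgeR, adjusted p = 0.00175). In that test of a difference 9.82% of all genes were called, and CIT2 and YHM2 of the 6. With all libraries the same test in stationary phase called 31.1% of all genes and 0 of the 6. Without the 5 libraries that stand apart it called 3 of the 6, PYC1 (0.27), ACO1 (0.33) and YHM2 (-0.32). The share of all genes called in that fit is not given here. In stationary phase the CIT2 change ran from -3.76 ± 0.284 in DSM-3286 at pH 5.5 to -0.59 ± 0.235 in the same strain at pH 3.5. The latter was near the threshold (edgeR, adjusted p = 0.0454) and was lost without a filter on low counts and when any of 5 libraries was left out.

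Acid culture changed CIT2 most on glycerol. In DSM-3286 on glycerol it stood at 13.5, 9.87 and 22 CPM at pH 5.5 and at 116, 109 and 115 CPM at pH 3.5, a 7.50-fold difference (log2 2.91 ± 0.266, edgeR, adjusted p = 4.73e-10). In DSM-21175 on glycerol it went from 2.06, 3.78 and 1.98 CPM to 9.21, 14.2 and 6.55 CPM (1.94 ± 0.323). On glucose the DSM-21175 values were 17.5, 17.0 and 10.5 CPM at pH 5.5 and 30.0, 25.2 and 28.0 CPM at pH 3.5 (0.89 ± 0.252). None of these pH groups overlapped. The glucose call in DSM-21175 was lost without replicate 3 at pH 5.5 (0.69, edgeR, adjusted p = 0.0699). On glucose in DSM-3286, 204 and 205 CPM at pH 5.5 stood beside 186, 181 and 146 CPM at pH 3.5, and the change of -0.26 (95% interval -0.79 to 0.27) did not pass. The effect of glycerol was smaller at pH 3.5 by 2.11 ± 0.274 on the log2 scale (edgeR, adjusted p = 5.64e-06), in a test that called 19.5% of all genes and, of the 6, CIT2 and YHM2. CIT1 (0.43) and ACO1 (0.29) passed too without the 5 libraries.

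The phase change of CIT2 was the largest of the 6 genes in DSM-21175 but not in DSM-3286. There CTP1 and PYC1 changed more on both carbon sources, and YHM2 did on glucose (-0.82). In DSM-21175 the CIT2 level fell by 5.47 on the log2 scale on glycerol (SE 0.316), a 44.3-fold fall, and by 4.62 on glucose (SE 0.275). In DSM-3286 it fell by 1.05 on glycerol (SE 0.265) and by 0.58 on glucose (SE 0.264), and the last was at the threshold (edgeR, adjusted p = 0.0499) and was lost without any of the 5 libraries it compares. The strains differed in this change by -4.23 ± 0.272 (edgeR, adjusted p = 8.61e-13). Among all genes 58.2% were called in that test, and 5 of the 6 genes were; ACO1 passed without the 5 libraries (-0.50). The strain order of CIT2 was opposite in the 2 phases on glycerol. DSM-21175 held 3.68-fold more than DSM-3286 when growing on glycerol (1.88 ± 0.249) and 5.80- to 13.7-fold less in the 4 stationary conditions (-2.54 to -3.77).

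ACO1 encodes aconitase, which converts citrate to isocitrate. Its RNA separated by phase and by little else. Group means in growth were 1535 to 1919 CPM, and in stationary phase 787 to 1180 CPM. The lowest growing library, DSM-21175 on glycerol replicate 2 at 1510 CPM, stood above the highest stationary one at 1204 CPM. ACO1 fell in 4 of 4 contrasts, from -0.45 ± 0.144 in DSM-3286 on glucose to -1.01 ± 0.128 in DSM-21175 on glycerol, and by -0.83 ± 0.0664 on average (edgeR, adjusted p = 1.46e-12).

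The pH change of ACO1 was -0.02 on average, with a 95% interval of -0.16 to 0.11, and 0 of 4 contrasts passed. Without the 5 libraries 2 did, DSM-3286 on glucose (-0.28) and DSM-21175 on glycerol (0.28). On glycerol it was lower in stationary phase by -0.25 ± 0.0654, carried by DSM-3286 at pH 5.5, where 1156 and 1204 CPM on glucose stood above 774, 794 and 793 CPM on glycerol (-0.58 ± 0.141). In growth the carbon source change was -0.04 (-0.23 to 0.14). The average strain difference was 0.15 ± 0.053, with 1 of 6 contrasts called, DSM-21175 growing on glycerol (0.30 ± 0.127, edgeR, adjusted p = 0.0488), and that call was lost when any of 5 libraries was left out. Without all 5 libraries that stand apart it was 0.47 (edgeR, adjusted p = 0.000253), and DSM-21175 was also higher in growth on glucose (0.35) and on glycerol at pH 3.5 (0.29), and lower in stationary phase on glucose at pH 5.5 (-0.30).

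CTP1 carries the name of the mitochondrial citrate carrier that in Saccharomyces cerevisiae exchanges citrate for other carboxylates. Its RNA was highest in growing cells on glycerol, at 285, 296 and 278 CPM in DSM-21175 and 251, 240 and 253 CPM in DSM-3286. Growth on glucose gave 197, 199 and 163 CPM in DSM-21175 and 146, 157 and 159 CPM in DSM-3286. These 4 growth groups did not overlap with each other or with any stationary group, where the highest library was at 64.5 CPM. CTP1 was higher on glycerol in growth by 0.69 ± 0.108 in DSM-3286 and 0.62 ± 0.108 in DSM-21175. In stationary phase the averaged carbon source change was -0.04 (95% interval -0.16 to 0.08), and the difference between phases was -0.72 ± 0.115 (edgeR, adjusted p = 7.76e-06). That test called 49.0% of all genes and 4 of the 6, PYC1 upward and CIT2, ACO1 and CTP1 downward. The CIT2 and ACO1 calls were at the threshold (edgeR, adjusted p = 0.0465 and 0.0456), and leaving out 1 library lost them in 17 and 19 of 23 cases. They were also lost with RLE scaling, without the filter and with limma. CIT1 (-0.29) and YHM2 (0.59) passed too without the 5 libraries.

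CTP1 fell in stationary phase in 4 of 4 contrasts. In DSM-3286 on glycerol it went to 28.4, 21.3 and 27.1 CPM, a 9.75-fold fall (-3.29 ± 0.122). In DSM-21175 on glycerol it went to 58.4, 56.7 and 55.2 CPM, a 5.05-fold fall (-2.34 ± 0.114). On glucose the falls were 5.29-fold in DSM-3286 and 3.45-fold in DSM-21175. The strains differed in the size of the change by 0.78 ± 0.115 (edgeR, adjusted p = 1.39e-06). In all 4 stationary conditions every DSM-21175 library lay above every DSM-3286 library, and the differences of 0.82 to 1.16 were called. The pH change averaged 0.18 ± 0.0585 (edgeR, adjusted p = 0.00834). It fell to 0.12 (edgeR, adjusted p = 0.0608) without replicate 3 of DSM-3286 on glucose at pH 5.5, and 1 of 4 contrasts was called, DSM-3286 on glycerol (0.37 ± 0.118), a call lost when either of 2 libraries was left out (0.24 and 0.23).

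YHM2 carries the name of a mitochondrial carrier that in Saccharomyces cerevisiae exchanges citrate for oxoglutarate. In DSM-3286 it stood at 3308, 3451 and 3696 CPM in growth on glucose and at 2385, 2047 and 2151 CPM on glycerol. In stationary phase the pH 5.5 values were 2090 and 1845 CPM on glucose and 3184, 2950 and 2944 CPM on glycerol. At pH 3.5 they were 2252, 2350 and 2873 CPM on glucose and 1415, 1549 and 1698 CPM on glycerol. The carbon source that gave the higher level was therefore glucose in growth and at pH 3.5, and glycerol at pH 5.5 in stationary phase, with no overlap in any of the 3 pairs. The called changes were -0.67 ± 0.263 in growth and -0.68 ± 0.263 at pH 3.5, lost when any of 4 and of 5 libraries, respectively, was left out. The 0.62 ± 0.298 at pH 5.5 did not pass (edgeR, adjusted p = 0.106), but passed without the 5 libraries that stand apart, which are of the other strain.

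In DSM-21175 the YHM2 libraries of a group differed more. Growing cells held 1322, 1402 and 596 CPM on glucose and 1772, 1409 and 1519 CPM on glycerol. The change of 0.50 on glycerol did not pass, though the libraries did not overlap. Stationary cells at pH 5.5 held 440, 428 and 226 CPM on glucose and 452, 482 and 244 CPM on glycerol. At pH 3.5 they held 305, 393 and 376 CPM on glucose and 225, 185 and 334 CPM on glycerol. Replicate 3 was the lowest of its group in 3 of these and the highest on glycerol at pH 3.5, and these 4 libraries are among the 5 that stand apart. Without the 5, the lower level on glycerol at pH 3.5 was called (-0.81, against -0.53 with them).

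YHM2 was lower in DSM-21175 in 5 of 6 contrasts. The largest difference was on glycerol at pH 5.5 in stationary phase, 7.71-fold (-2.95 ± 0.282), and the average was -2.16 ± 0.113 (edgeR, adjusted p = 7.6e-16). The remaining contrast, growth on glycerol, gave -0.49 ± 0.263 and did not pass, although the libraries did not overlap; it passed without the 5 libraries (-0.39). In stationary phase YHM2 fell in DSM-21175 by 1.60 on glucose (SE 0.269) and by 2.0 on glycerol (SE 0.272), and in DSM-3286 by 0.82 on glucose (SE 0.3). Without replicate 3 of the stationary glucose group the last value was -0.74 (edgeR, adjusted p = 0.104). In DSM-3286 on glycerol the change was 0.46 ± 0.263 and did not pass, but did without the 5 libraries (0.52). The difference between strains was -1.62 ± 0.27 (edgeR, adjusted p = 1.26e-05).

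The pH change of YHM2 depended on the carbon source. It was -0.96 ± 0.264 in DSM-3286 on glycerol and -0.66 ± 0.264 in DSM-21175 on glycerol, of which the first passed. On glucose it was 0.34 (95% interval -0.27 to 0.95) and -0.03 (-0.57 to 0.51). The carbon source change differed between pH values by -0.97 ± 0.272 (edgeR, adjusted p = 0.0133). Without the 5 libraries the DSM-21175 glycerol change was -1.18 (edgeR, adjusted p = 2.23e-08), and the 0.34 of DSM-3286 on glucose passed (adjusted p = 0.0152). The average over the 4 contrasts, -0.33 ± 0.135, was lost when any of 11 libraries was left out (edgeR, adjusted p = 0.0339 with all). Without the 5 libraries it was -0.52 (edgeR, adjusted p = 3.57e-09).

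Ratios of FPKM within a library set related genes side by side. The CIT2 level was 0.545 ± 0.0498 of the CIT1 level in DSM-21175 growing on glucose and 0.411 ± 0.00808 in DSM-3286. On glycerol in stationary phase at pH 5.5 it was 0.00776 ± 0.00292 in DSM-21175 and 0.0345 ± 0.0129 in DSM-3286. Per coding length CIT1 thus stood above CIT2 in every group. The CTP1 level was on average 0.168 to 0.268 of the YHM2 level in the 6 groups of DSM-21175, and 0.125 to 0.33 in single libraries. The lowest mean, on glycerol in stationary phase at pH 5.5, includes replicate 3 at 0.242, a library that stands apart. In DSM-3286 the CTP1 to YHM2 ratio ran from 0.121 ± 0.00745 in growth on glycerol down to 0.00899 ± 0.00114 on glycerol in stationary phase at pH 5.5. The highest of its libraries, at 0.125 in growth on glycerol, overlapped with DSM-21175. The PYC1 level was 0.59 ± 0.0786 of the CIT1 level in DSM-21175 growing on glycerol and 4.49 ± 0.363 in DSM-3286 on glycerol in stationary phase at pH 5.5.

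**Figure D3:**
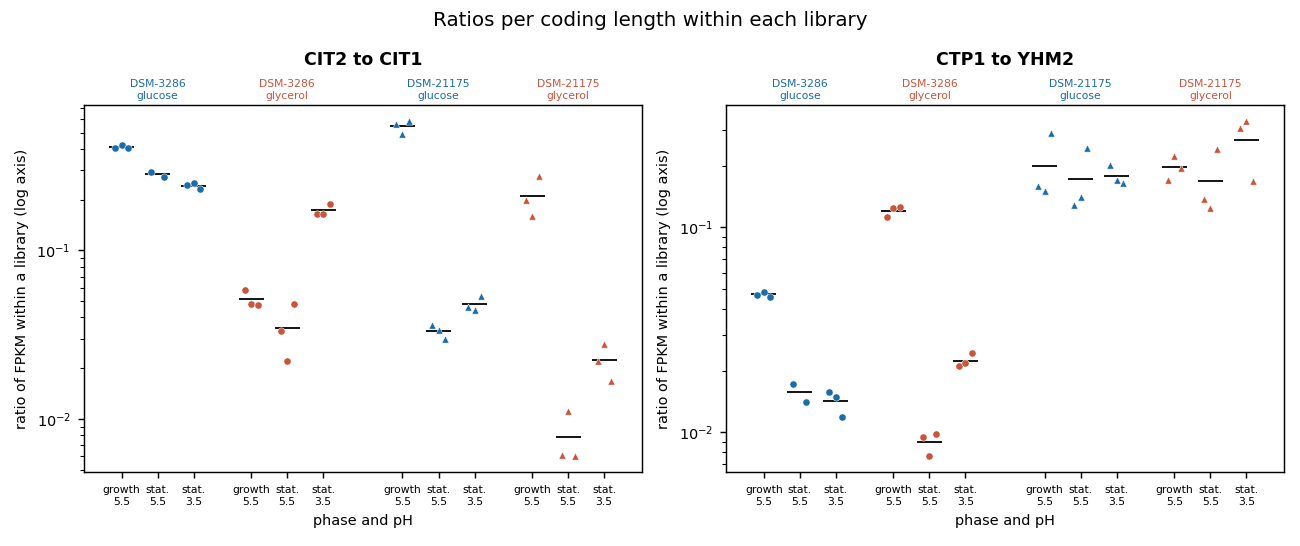
Ratio of FPKM within each library on a log axis, CIT2 to CIT1 on the left and CTP1 to YHM2 on the right; circles are DSM-3286, triangles DSM-21175, and bars are group means. Group means of CIT2 to CIT1 span 0.545 to 0.00776. Those of CTP1 to YHM2 lie at or above 0.168 in DSM-21175 and at or below 0.121 in DSM-3286. Single libraries of the strains overlap in CTP1 to YHM2, near 0.125.

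Over the 12 group means of log2 CPM, CIT1 and CIT2 followed each other with a Pearson r of 0.932 (Spearman rho 0.93), and with 0.983 over the 8 stationary groups, although their spreads were 2.23-fold and 139-fold. ACO1 and CTP1 had an r of 0.899, which fell to 0.29 over the stationary groups. CTP1 and YHM2 had an r of 0.0858 over all groups and -0.976 over the stationary ones, where the strains form separate clusters. These are descriptions over group means that share libraries, scaling and design. Among 5646 other genes with a mean log2 CPM of 3 or more, CIT2 was the third nearest in pattern to CIT1, after YALI0A06908g (r 0.952) and YALI0E16599g (0.9429). The nearest to CIT2 was YALI0E28853g (0.9677), to PYC1 YALI0F01694g (0.9764), to ACO1 YALI0A07689g (0.9787), to CTP1 YALI0D10659g (0.987) and to YHM2 YALI0F31229g (0.9841). CTP1 had 133 genes with an r over 0.95, CIT1 and CIT2 had 1 each.

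The neighbouring steps of the pathway were followed through 26 further genes, in lists chosen with earlier results known and named, like the 6, from published symbols. Of 12 genes of the tricarboxylic acid cycle after citrate, 8 fell and 2 rose in stationary phase (median -0.526), where 43.2% of all genes fell and 42.9% rose. The fall was not seen in DSM-3286 on glucose, with 1 lower, 2 higher and a median of 0.0365, where 71.9% of all genes were called. At pH 3.5, 9 of the 12 were higher and 1 lower (median 0.492), beside 34.2% and 34.3% of all genes. The split was 4 higher and 3 lower in DSM-3286 on glucose, where 46.3% of all genes were called. In the other 3 conditions 7 to 10 were higher and at most 1 lower, with 27.3 to 66.2% of all genes called. MDH1, malate dehydrogenase, was among the higher ones, at 465 CPM at pH 3.5 and 172 CPM at pH 5.5 (1.44 ± 0.168), as was KGD2 of the oxoglutarate dehydrogenase complex (0.93 ± 0.0672). Between carbon sources 1 of the 12 was called in growth, higher on glycerol, beside 62.6% of all genes called. In stationary phase 4 were lower, beside 21.0% of all genes. By single contrast 4 were lower in DSM-3286 at pH 5.5 (35.8% of all genes called) and at most 2 elsewhere (11.9 to 42.7%). The 3 genes listed for pyruvate dehydrogenase, which supplies acetyl-CoA, all fell in stationary phase on average and in each of the 4 contrasts. On average 43.2% of all genes fell, and 71.9 to 79.6% were called in the single contrasts. Among the 3 was PDB1 (345 CPM in stationary and 840 CPM in growth phase, a fitted log2 change of -1.455 ± 0.0624). LPD1, a subunit this complex shares with oxoglutarate dehydrogenase and listed here with the cycle, rose (0.39 ± 0.085). PYC1, the other fate of pyruvate followed here, also rose.

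Of the 4 glyoxylate cycle genes 3 were lower on glycerol in growth and 3 in stationary phase, beside 30.7% and 21.0% of all genes. In DSM-3286 at pH 3.5 the split was 1 higher and 1 lower (median -0.007), where 42.7% of all genes were called. MLS1 and MLS2, named as malate synthases, were lower in growth by -1.17 ± 0.121 and -2.49 ± 0.338, beside the -2.48 ± 0.176 of CIT2. In stationary phase 2 rose and 2 fell, beside 42.9% and 43.2% of all genes, and MLS2 rose by 1.70 ± 0.226 where CIT2 fell. The list of cytosolic citrate use and export held ACL1, ACL2, CEX1 and IDP2. It also held ACC1, FAS1 and FAS2, which belong to the lipid synthesis that citrate feeds. All 7 genes were lower in DSM-21175, on average, beside 37.5% of all genes. Their median was -1.18, beside 0.0345 over all genes. The change was -1.61 ± 0.0694 for FAS1 of fatty acid synthase, -1.19 for ACC1 and -1.18 for FAS2. It was -1.15 for ACL2, -0.45 for ACL1 and -0.30 for IDP2. In stationary phase 6 or 7 of the 7 were lower in each condition, where 61.3 to 69.7% of all genes were called. In growth on glucose 5 were lower (56.6% of all genes called). In growth on glycerol 3 were lower and 1 higher (48.9% called), with a median of -0.323. CEX1, the citrate exporter of the plasma membrane, averaged 9.33 CPM in growth and 4429 CPM in stationary phase at pH 5.5 over both strains. The fitted mean log2 change was 7.31 ± 0.169. The strains were far apart, at 109 CPM in DSM-21175 and 3032 CPM in DSM-3286 over all conditions. CEX1 was lower at pH 3.5 (-3.24 ± 0.138) and in DSM-21175 (-2.89 ± 0.115), beside 34.3% and 37.5% of all genes. PYC1 and YHM2 were also lower on average in both comparisons. The PYC1 pH change was called only in DSM-3286, and the YHM2 pH average was lost when any of 11 libraries was left out. In stationary phase YHM2 fell on average (-0.99), where CEX1 rose. ACL1, of ATP citrate lyase, which splits citrate in the cytosol, was higher on glycerol in growth (0.53 ± 0.0641), as CTP1 was. ACL2, of the same enzyme, was not called there (0.07 ± 0.0799). In stationary phase ACL1 and ACL2 fell (-1.28 ± 0.0479 and -0.75 ± 0.059).

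**Figure D4:**
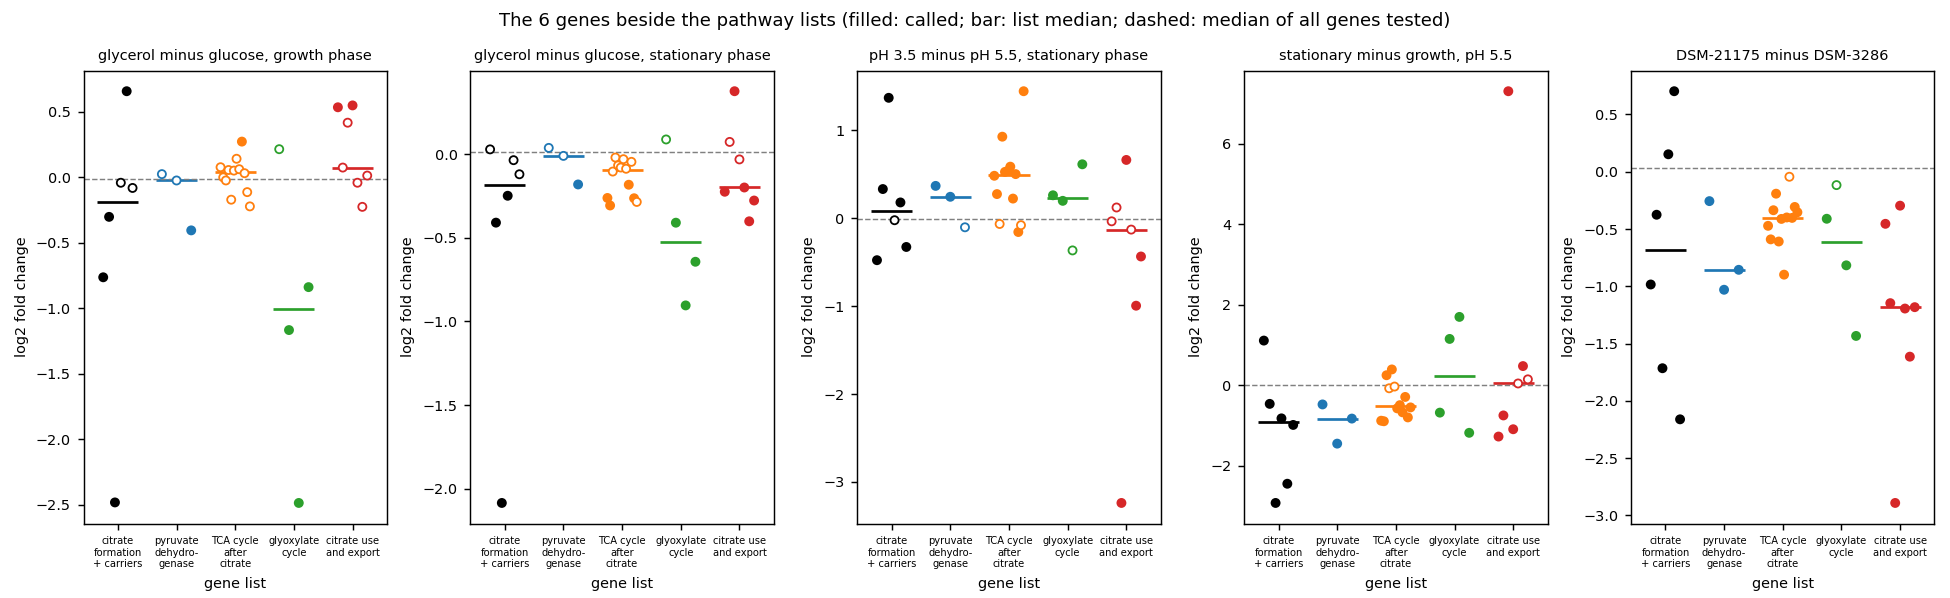
Log2 fold changes of the 6 genes and of the 4 pathway lists in the 5 averaged comparisons; each point is a gene, filled where called, bars are list medians and dashed lines the median over all genes tested. The citrate use and export list includes ACC1, FAS1 and FAS2 of lipid synthesis. In the averaged strain comparison all 7 of its genes lie below 0, with a median of -1.18. In stationary phase CEX1 stands at 7.31, above every other point.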

How the data were processed

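RNA of 35 libraries was measured by poly(A)-selected, strand-specific sequencing; the submitters describe the cultures as biological triplicates. The authors deposited whole-number counts of reads per gene, named raw in the file headers, with gene lengths and effective lengths, and a table of log2 values. The log2 values the authors deposited matched log2(FPKM + 1) computed from the counts within 0.02 for 99.9% of values. Tools listed in the submitters' processing notes, with no role, are featureCounts 1.5.1, BWA 0.7.12-r1039 and edgeR. Not given in the sources used here are the build and whether counting used strand, so reads of an antisense partner could be counted too. In the reference gene table of strain W29, 0 annotated genes overlap any of the 6. All columns were assigned by name, and 0 were unused.

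The counts were fitted with edgeR 4.0.16 under R 4.3.3 (filterByExpr, TMM, glmQLFit with robust estimation, 1 coefficient per group, 23 residual degrees of freedom, biological coefficient of variation 14.8%). SE is the log2 fold change divided by the square root of F. Averaged comparisons are means over 2 growth or 4 stationary carbon source contrasts, 4 pH, 4 phase and 6 strain contrasts; the difference in carbon source change between phases uses pH 5.5 only. Each library is taken as 1 replicate, as the submitters describe. Replicates differed beyond counting noise (chi-square per gene of 3.39 or more), which alone cannot show that the cultures were separate. Coding length is the effective length, a multiple of 3 for 6447 of 6448 coding genes. FPKM is CPM per kilobase of it. A library stands apart where its r with both replicates is over 0.005 below theirs; this rule, and the fit without those libraries, were chosen after seeing the data. The 6 genes and the lists were chosen with earlier results of these data known. Named genes are the 6, up to 2 higher and 2 lower called list genes per averaged comparison, and the 3 nearest patterns per gene, of which the first is printed for all. The method was tested on simulated counts. Alternatives were DESeq2 1.42.0, RLE scaling, no filter, limma 3.58.1 on the deposited log2 values, only the libraries compared, a replicate block, and leaving out libraries. Counting error alone is about 5 reads at the lowest count of 27. Figures were drawn with matplotlib.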

Additional observations from a re-analysis of the deposited data

Results flagged for a closer look

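Several changes of the 6 genes differed between phases, pH values or strains in a test of the difference itself (edgeR's quasi-likelihood test, adjusted p under 0.05), and their sizes are log2 differences. The change from glucose to glycerol differed between stationary and growth phase by 0.79 for PYC1, -0.66 for CIT2, -0.32 for ACO1 and -0.72 for CTP1. The CIT2 and ACO1 values were at the threshold (adjusted p = 0.0465 and 0.0456) and lost their call in 17 and 19 of 23 fits that leave out 1 library. It differed between pH 3.5 and pH 5.5 by 2.11 for CIT2 and -0.97 for YHM2. In growth it differed between DSM-21175 and DSM-3286 by 1.61 for CIT2 and 1.17 for YHM2. The YHM2 value contains the low replicate 3 of DSM-21175 growing on glucose (596 CPM) and was lost when any of 9 libraries was left out.

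The change with pH differed between the strains by 0.97 for PYC1. The change from growth to stationary phase differed between the strains by -4.23 for CIT2, -1.62 for YHM2, 0.78 for CTP1, -0.63 for PYC1 and -0.39 for CIT1. With 0 of the 6 genes called, the carbon source change in stationary phase did not pass in a test of the difference between strains (edgeR, with 31.1% of all genes called), where ACO1 alone had an unadjusted p under 0.05 (0.0417).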

How the results depend on the processing

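No value of the 6 genes changed sign where it was called, under any alternative run. Of 186 values each, 180 kept their side of the threshold with DESeq2, 182 with RLE scaling, 181 without the filter (7055 genes), 179 with limma, and 158 without the 5 libraries that stand apart, where 26 newly passed; of 180, 160 did with only the libraries compared. Leaving out 1 library kept 2021 of 2154. RLE scaling moved the median of all genes by at most 0.107. The replicate numbers showed no pairing over the libraries as a whole, with a median correlation of deviations of 0.00111 over 187 same-numbered pairs. Single pairs ran from -0.493 to 0.446, and 20 were over 0.1. Whether some of the groups are paired was not tested. Of 35 libraries 14 correlated best with their own number. With the replicate block 181 of 186 were unchanged, and CIT2 lost its difference between phases (-0.65, edgeR, adjusted p = 0.0564).

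Of the 6 genes, those with a carbon source change that differed between phases went from 4 to 2 with RLE scaling, without the filter and with limma; CIT2 and ACO1 were lost. Those differing between strains in growth went from 2 to 1 with only the libraries compared. In DSM-21175 that setting called 87 (not 776) and 437 (not 1029) genes for carbon source at pH 5.5 and 3.5, and 941 (not 1783) and 928 (not 1878) for pH on glucose and glycerol. Without the 5 libraries, carbon source by pH gave 2100 (not 1272) genes and 4 (not 2) of the 6, strain by carbon source 1177 (not 642) genes in growth and 3 (not 0) of the 6 in stationary phase, and strain by pH 3 (not 1) of the 6; DSM-21175 carbon source gave 1196 and 2449 genes at pH 5.5 and 3.5. Leaving out 1 library, those counts ranged from 490 to 718 and 453 to 1580, DSM-21175 pH on glucose from 1042 to 1616, and the 6 genes' counts from 2 to 4 (phases), 1 to 2 (strains, growth), 0 to 1 (strains, stationary) and 1 to 2 (strain by pH). Leaving out a library of DSM-3286 on glucose at pH 5.5 leaves 1, assumed to vary like the rest. The cause of these differences was not tested. Low counts limit CIT2 in DSM-21175 on glycerol, at 27 to 50 reads at pH 5.5.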
